A study of Mus musculus with 42 samples.

Results

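Immediate early genes of transcription were examined in irradiated mouse lung as a set of 10 genes: the AP-1 subunits Fos, Fosb, Jun, Junb and Jund, the zinc finger factor Egr1, the stress factor Atf3, the orphan nuclear receptors Nr4a1 and Nr4a2, and the phosphatase Dusp1. Each gene was represented by the array probe annotated to it with the highest mean signal over 42 arrays. All 10 had a probe, of 19053 genes named on the array's 45281 probes. Of the 10 genes, 9 were measured well enough to be tested and 1, Nr4a1, was not.

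The tissue was the whole left lung of 42 mice of the strain 129S2 K-rasLA1, all labelled as carrying the mutant K-ras G12D, so that the controls had the same oncogene as the irradiated mice. In mice of this kind the oncogenic allele becomes active by chance recombination in scattered cells, and lung tumours arise on their own. The control group was 13 unirradiated mice (7 males and 6 females). The acute group was 15 mice (8 males and 7 females) given 1.0 Gy of 56Fe particles, heavy charged nuclei of the kind found in cosmic rays, in a single exposure. The fractionated group was 14 mice (7 males and 7 females) given 5 exposures of 0.2 Gy each. Irradiation used an energy of 1.0 GeV per nucleon, and lungs were taken 70 days later. The labels give no ages. The design text counts 13 fractionated mice, whereas 14 arrays carry that label. Each mouse was measured on 1 Illumina BeadChip array, so the mouse was the replicate.

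Immediate early genes are switched on within minutes of a stimulus, without new protein synthesis, by kinase cascades that act on factors already bound at their promoters. Their transcripts are short-lived, and most of their products are transcription factors that carry the signal on to later genes. In lung they are known to respond to stretch, injury, growth factors and handling of the tissue, as well as to radiation. Fos and Jun proteins pair as the AP-1 factor, and Dusp1 switches the kinases off again.

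The promoters of these genes are shown first as background, and no link between their elements and the levels described below was tested. RefSeq windows of 300 bases, from 250 bases before to 50 bases after the annotated start on GRCm38.p6, were matched by symbol for 9 of the 10 genes, and Egr1 is named only. The 250 bases before the start are printed for 3 genes that varied together (Fos, Fosb and Junb) and for 2 that followed Fosb and Junb less (Jun and Dusp1). They lie at chr12:85473640-85473889 on the plus strand (Fos) and, on the minus strand, at chr7:19310046-19310295 (Fosb), chr8:84978749-84978998 (Junb), chr4:95052223-95052472 (Jun) and chr17:26508473-26508722 (Dusp1). Each is written 5′ to 3′ on the gene's own strand, and capitals mark every match to the elements described in the next paragraph.
Fos: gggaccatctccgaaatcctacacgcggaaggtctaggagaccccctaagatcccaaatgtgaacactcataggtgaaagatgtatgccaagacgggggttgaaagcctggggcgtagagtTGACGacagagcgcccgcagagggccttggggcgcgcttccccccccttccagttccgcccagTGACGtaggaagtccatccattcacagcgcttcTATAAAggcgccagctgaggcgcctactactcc
Fosb: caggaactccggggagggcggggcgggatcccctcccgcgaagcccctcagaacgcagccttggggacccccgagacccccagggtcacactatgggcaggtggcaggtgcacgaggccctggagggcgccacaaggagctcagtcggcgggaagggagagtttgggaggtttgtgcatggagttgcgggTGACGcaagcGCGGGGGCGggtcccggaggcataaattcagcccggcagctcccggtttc
Junb: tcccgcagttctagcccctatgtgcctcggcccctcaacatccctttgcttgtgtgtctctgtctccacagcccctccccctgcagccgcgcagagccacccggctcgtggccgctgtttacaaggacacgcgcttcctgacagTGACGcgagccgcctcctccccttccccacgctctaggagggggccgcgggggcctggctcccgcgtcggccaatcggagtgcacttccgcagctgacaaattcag
Jun: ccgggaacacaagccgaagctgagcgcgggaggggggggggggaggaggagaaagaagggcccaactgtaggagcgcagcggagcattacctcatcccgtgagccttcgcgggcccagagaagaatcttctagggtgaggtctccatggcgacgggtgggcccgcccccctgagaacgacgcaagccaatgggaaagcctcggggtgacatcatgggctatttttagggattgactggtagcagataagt
Dusp1: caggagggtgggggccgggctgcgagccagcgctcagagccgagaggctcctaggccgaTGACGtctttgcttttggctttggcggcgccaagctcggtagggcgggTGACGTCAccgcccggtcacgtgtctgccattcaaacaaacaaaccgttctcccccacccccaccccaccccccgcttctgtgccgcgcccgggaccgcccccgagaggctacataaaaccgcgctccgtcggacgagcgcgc

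The cyclic AMP response element (CRE) is bound by CREB and ATF factors, which are activated by phosphorylation. Its short form TGACG, searched on both strands, was found in the windows of 7 of the 9 genes (Fos, Fosb, Junb, Nr4a1, Nr4a2, Dusp1 and Atf3) against 20.8% of all 32851 windows of the same length. Jun and Jund held no such match, and none of the searched elements at all. The G and C content of the 9 windows ran from 46.7% (Jund) to 81.7% (Nr4a2). The shares over all windows were not matched for base composition. The full palindrome TGACGTCA, which contains the short form on both strands, was found in Dusp1 alone among the 9, and in 1.79% of all windows. An Egr element (GCGTGGGCG or GCGGGGGCG, both strands) was found in Fosb and Nr4a1, against 3.47% of all windows. A TATA box (TATAAA, coding strand) lay 33 bases before the start in Fos and at the annotated start of Junb (base 1, beyond the printed bases), against 8.32% of all windows. The AP-1 element (TGACTCA or TGAGTCA, both strands; 5.2% of all windows), the CArG box bound by serum response factor (1.63%) and the NF-kB element (1.39%) were found in none of the 9 windows. A match describes letters in a window and is not evidence of a bound site, and a missing match says only that these letters are not in these bases.

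**Figure D1:**
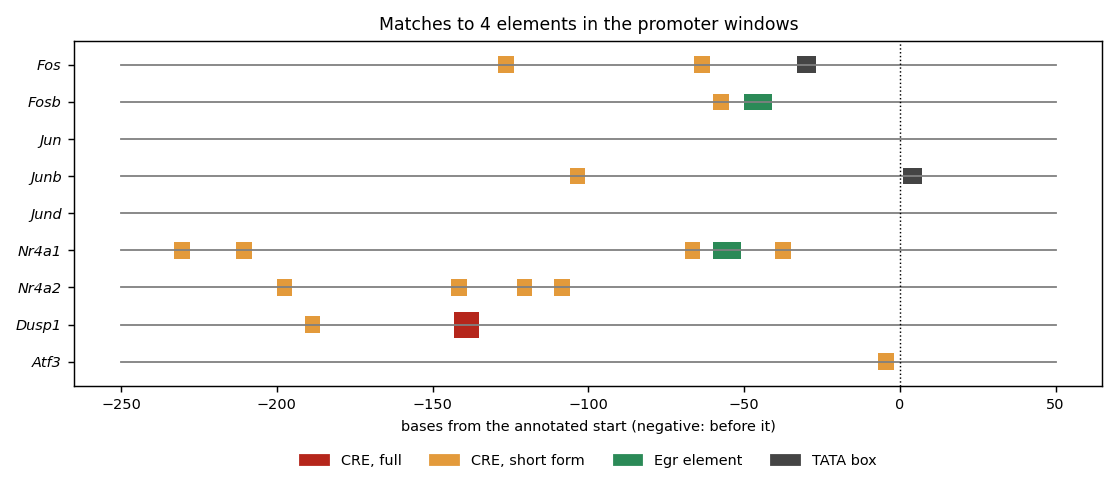
Positions of 4 elements in the promoter windows of 9 genes, with distance from the annotated start in bases on the x axis and 1 line per gene. The short CRE form is drawn in 7 of the 9 windows, and Jun and Jund are drawn with no element.

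The arrays were of similar yield, with 16264 to 18289 probes detected on each (detection p under 0.01). All 6 lung epithelial markers examined, among them Sftpc and Scgb1a1, were detected on all 42 arrays. One array stood apart: the signal profile of fractionated replicate 13 correlated with the median profile at 0.864, whereas the other 41 arrays lay between 0.960 and 0.991. In that lung the mean of the cell cycle markers was 4.55 higher, in log2 units, than the median of the remaining arrays and that of the T and NK cell markers 2.30 higher. By the same measure heart muscle markers lay at -3.76, red cell markers at -2.87, adipose markers at -2.82, smooth muscle markers at -2.60 and endothelial markers at -1.97. B cell markers lay at -1.16, mast cell markers at -1.03 and fibroblast markers at -1.004. Lung tissue markers lay at -0.68, and their mean of 13.61 was below the lowest of the other arrays (13.95). The remaining lists were immature T cells (0.46), glucocorticoid response (-0.22), neutrophils (0.19), macrophages (-0.17) and heat shock (-0.04). The summed normalized signal of the 5 cell cycle markers with a probe, of 6 listed, ran from 630 to 1626 in control, from 770 to 20240 in fractionated and from 680 to 1759 in acute lungs, and that of the T and NK cell markers (4 of 6 with a probe) from 616 to 1798, from 615 to 19750 and from 562 to 1497. Of the markers in these lists, Kdr, Cnn1, Cd8a, Ms4a1, Mmp8 and Fabp4 were detected on no array. The arrays were assigned to 8 slides by the barcodes in their titles. No label names a slide, and the hybridisation and scan batches behind the barcodes are not known. Each of 7 slides held all 3 groups, and the eighth held only fractionated replicate 14. Differences between groups that fractionated replicate 13 moves are given with and without it.

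Levels are log2 normalized signals, which can be compared between mice for a probe but not between probes. Of the 10 genes, Fos, Jun, Junb, Jund, Egr1 and Dusp1 were detected on all 42 arrays. Atf3 was detected on 39 arrays, Nr4a2 on 35 and Fosb on 29. The probe of Nr4a1, which encodes a nuclear receptor closely related to Nr4a2, was detected on 0 of 42 arrays, with a smallest detection p of 0.177, so no group level is given for it. A further probe of Junb was also detected on 0 of 42 arrays and gave no check.

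The Fos family came first among the members in how widely the mice differed. Fos, the AP-1 subunit that forms stable pairs with Jun proteins, ran from 8.61 through a median of 9.85 to 11.04 in control lungs. In fractionated lungs Fos ran from 7.35 through 9.52 to 10.67, and in acute lungs from 8.88 through 9.73 to 11.38. The 3 groups overlapped over most of their range, the highest value being that of acute replicate 5 and the lowest that of fractionated replicate 13. From the lowest to the highest of the 42 mice, Fos spanned 16.35-fold. The group means were 9.85 ± 0.76 in control (SD, n = 13), 9.53 ± 0.89 in fractionated (SD, n = 14) and 9.88 ± 0.80 in acute lungs (SD, n = 15). Fosb, a Fos relative with a longer-lived splice form known from neurons, ran from 4.98 through 5.95 to 7.36 in control, from 4.77 through 5.98 to 6.83 in fractionated and from 4.83 through 5.97 to 8.03 in acute lungs. Its medians lay close together and acute replicate 5 was again the highest. Fosb was detected in 10 of 13 control, 8 of 14 fractionated and 11 of 15 acute lungs, so its lower values lie near background.

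The Jun family varied less. Jun, the AP-1 subunit that c-Jun N-terminal kinases phosphorylate, ran from 10.08 through 10.49 to 11.002 in control, from 9.04 through 10.47 to 11.22 in fractionated and from 9.41 through 10.43 to 11.04 in acute lungs. Its 3 medians differed by less than the SD of any group, which was 0.27 in control, 0.54 in fractionated and 0.41 in acute lungs. Junb, a subunit that can restrain the activity of Jun, ran from 9.86 through 10.42 to 11.12 in control, from 9.35 through 10.33 to 11.20 in fractionated and from 9.85 through 10.44 to 11.33 in acute lungs. Jund, the subunit with the steadiest expression in resting cells, ran from 8.14 through 8.89 to 9.04 in control, from 7.25 through 8.63 to 9.17 in fractionated and from 8.28 through 8.92 to 9.30 in acute lungs. For Junb and Jund the lowest value was that of fractionated replicate 14, the only mouse on its slide.

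Egr1, a zinc finger factor induced by growth factors and shear stress, ran from 10.93 through 11.82 to 12.32 in control, from 10.28 through 11.62 to 12.37 in fractionated and from 10.92 through 11.40 to 12.77 in acute lungs. Its acute values were spread unevenly, with a median below that of both other groups and the highest values of the study. Atf3, a stress-induced factor of the ATF family, ran from 5.32 through 6.55 to 7.60 in control, from 5.26 through 6.74 to 7.77 in fractionated and from 5.83 through 6.69 to 8.15 in acute lungs. Nr4a2, a nuclear receptor that acts without a known ligand, ran from 5.88 through 6.48 to 7.33 in control, from 5.20 through 6.01 to 7.12 in fractionated and from 5.54 through 6.44 to 6.91 in acute lungs. Nr4a2 was detected in 13 of 13 control, 9 of 14 fractionated and 13 of 15 acute lungs, so the fractionated group held most of the undetected values.

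Dusp1, which dephosphorylates and switches off the MAP kinases p38 and JNK, ran from 13.05 through 13.46 to 14.20 in control, from 11.15 through 13.24 to 14.03 in fractionated and from 12.79 through 13.56 to 14.14 in acute lungs. The value of 11.15 belonged to fractionated replicate 13, and the lowest of the other 41 mice was 12.79. For each of the 9 genes and each pair of groups, 27 combinations in all, the ranges of the groups overlapped. Acute replicate 5 gave the highest value of 4 genes (Fos, Fosb, Egr1 and Atf3), and fractionated replicate 13 gave the lowest value of 5 (Fos, Fosb, Jun, Egr1 and Dusp1).

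**Figure D2:**
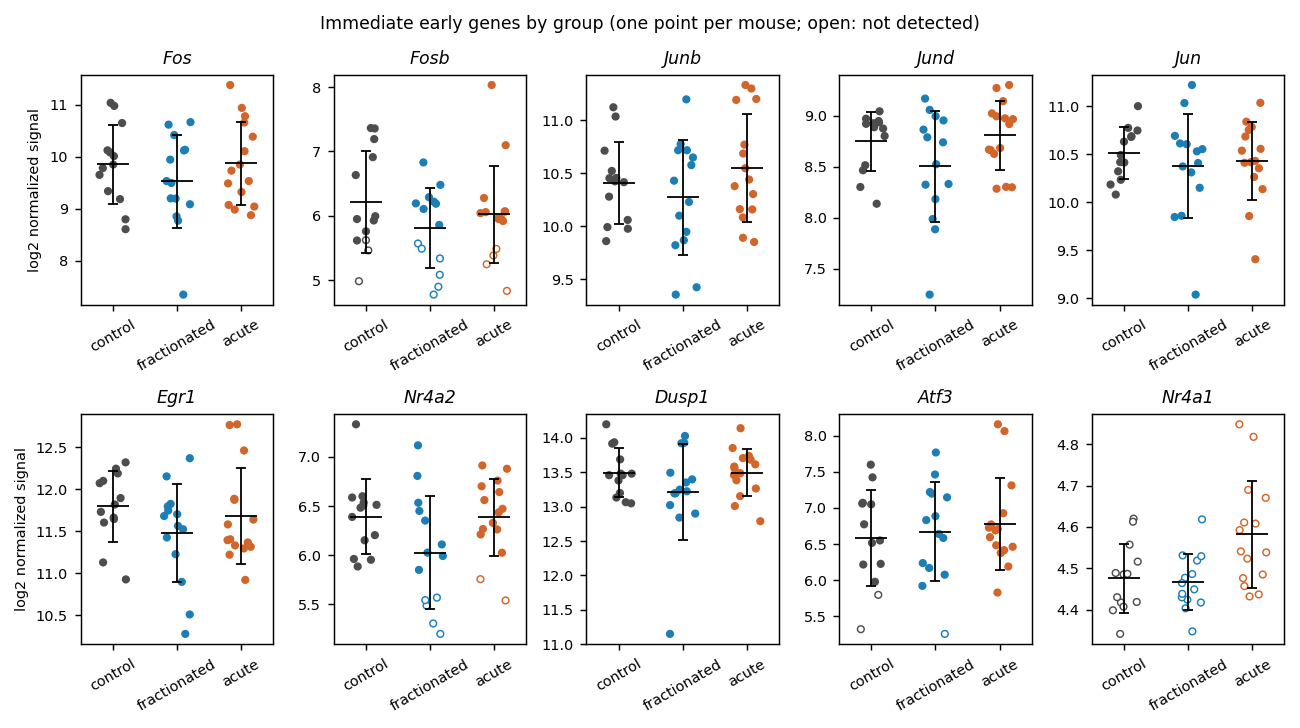
Log2 normalized signal of the 10 genes (y axis) in control, fractionated and acute lungs, with 1 point per mouse, open points where the probe was not detected, and a line and bars for the mean and SD. The groups overlap for every gene, the Fos and Dusp1 panels each show 1 fractionated lung far below the rest (7.35 and 11.15), and every point of Nr4a1 is open.

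The comparison of fractionated with control lungs asks whether a divided dose left a lasting difference in these genes. Of the 9 tested genes, 8 were lower in fractionated lungs and 1, Atf3, was higher, with a median log2 difference of -0.295 against -0.0040 over all 17927 probes tested. None of the 9 passed the test (limma, adjusted p 0.934 to 0.976), nor did any probe on the array (0 called, 0%). At an unadjusted p under 0.05, 784 probes (4.37%) and 1 of the 9 genes were found, and 51.2% of all probes had a lower sign. Nr4a2 was the gene with the smallest p, at 0.774 times the control level (log2 difference -0.37 ± 0.18, SE; 95% confidence interval -0.72 to -0.014; unadjusted p = 0.0417, adjusted p = 0.934 in limma). Fosb differed by -0.39 ± 0.27 (SE), Fos by -0.33 ± 0.30, Egr1 by -0.32 ± 0.20 and Dusp1 by -0.29 ± 0.18. Jund differed by -0.24 ± 0.15, Junb by -0.14 ± 0.18, Jun by -0.13 ± 0.16 and Atf3 by 0.09 ± 0.25. With no background correction, Nr4a2 differed by -0.15 ± 0.08 (SE), Fosb by -0.19 ± 0.13 and Atf3 by 0.05 ± 0.13. Each of these genes was undetected on some arrays, and the size of their differences depended on this step. The 9 genes vary together, as described further on, so their shared sign is not 9 separate observations.

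A single lung carried part of these differences. Without fractionated replicate 13, the median over the 9 genes was -0.158, the difference of Fos was -0.16 ± 0.28 (SE), that of Dusp1 -0.13 ± 0.13 and that of Jun -0.036 ± 0.14, with 8 of 9 genes still lower and an adjusted p of 1 for each. Nr4a2 moved little, to -0.31 ± 0.17. In fractionated replicate 13, the difference from the median of the other mice was -2.43 for Fos, -2.31 for Dusp1 and -1.45 for Jun, alongside the marker values given above. The part of other cell types in these low values was not tested, and in whole lung fewer cells of a type cannot be told apart from less RNA per cell. With slide as a further block and without that mouse, the median was -0.117. Within the 7 slides that held all groups, and without that mouse, Egr1 was lower in fractionated than in control lungs on 6 slides, and Fos, Junb, Jund, Nr4a2 and Dusp1 on 4 slides each. Fosb, Jun and Atf3 were lower on 3 of the 7 slides. Each of these differences rests on few mice, with at most 2 control and 2 fractionated mice on a slide. The same counts over all probes were not computed.

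In acute lungs the genes lay near the control level. Of the 9, 4 were higher and 5 lower, with a median log2 difference of -0.0012 against 0.0075 over all probes. No gene and no probe was called (0 of 17927, 0%, with 53.3% of probes higher in sign; limma, adjusted p 1 for each of the 9), whereas 253 probes (1.41%) and none of the 9 had an unadjusted p under 0.05. The differences ran from -0.19 ± 0.26 (SE) for Fosb to 0.20 ± 0.24 for Atf3. For Dusp1 the difference was -0.0012 with a 95% confidence interval of -0.36 to 0.36, for Jund 0.06 with an interval of -0.24 to 0.36, and for Jun -0.08 with an interval of -0.40 to 0.23. The interval of Fos was wider, from -0.58 to 0.62. Median scaling of the arrays in place of quantile normalization moved the median of all probes to 0.107 in this comparison, and under it 8 of the 9 genes were higher, with a median of 0.134.

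Fractionated and acute lungs received the same total dose and differed in its division. All 9 genes were lower in fractionated than in acute lungs, with a median of -0.285 against -0.0126 over all probes, and 54.6% of all probes had a lower sign. None was called (limma, adjusted p 1 for each), as was no probe (0%). At an unadjusted p under 0.05 there were 372 probes (2.08%) and 2 of the 9 genes. These were Nr4a2 (-0.36 ± 0.17, SE; unadjusted p = 0.0394 in limma) and Jund (-0.30 ± 0.15; unadjusted p = 0.048). With no background correction the difference of Nr4a2 was -0.15 ± 0.08 (SE). The difference of Jund was -0.19 ± 0.13 (SE) without fractionated replicate 14, and -0.17 ± 0.088 with slide as a fixed block. Without fractionated replicate 13 the median was -0.139 and Jun was at 0.045, above 0. With slide as a further block and without that mouse, 7 of the 9 genes were lower, with a median of -0.075. This comparison uses the same fractionated lungs as the comparison with control, so the values of a gene in both are not separate evidence. Within slides and without that mouse, Junb and Jund were lower in fractionated than in acute lungs on 6 of 7 slides, Fos, Fosb, Nr4a2, Dusp1 and Atf3 on 4, Egr1 on 3 and Jun on 2. The median of the 7 within-slide differences was above 0 for Jun (0.126) and Egr1 (0.087). These counts also rest on few mice per slide and were not computed over all probes.

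**Figure D3:**
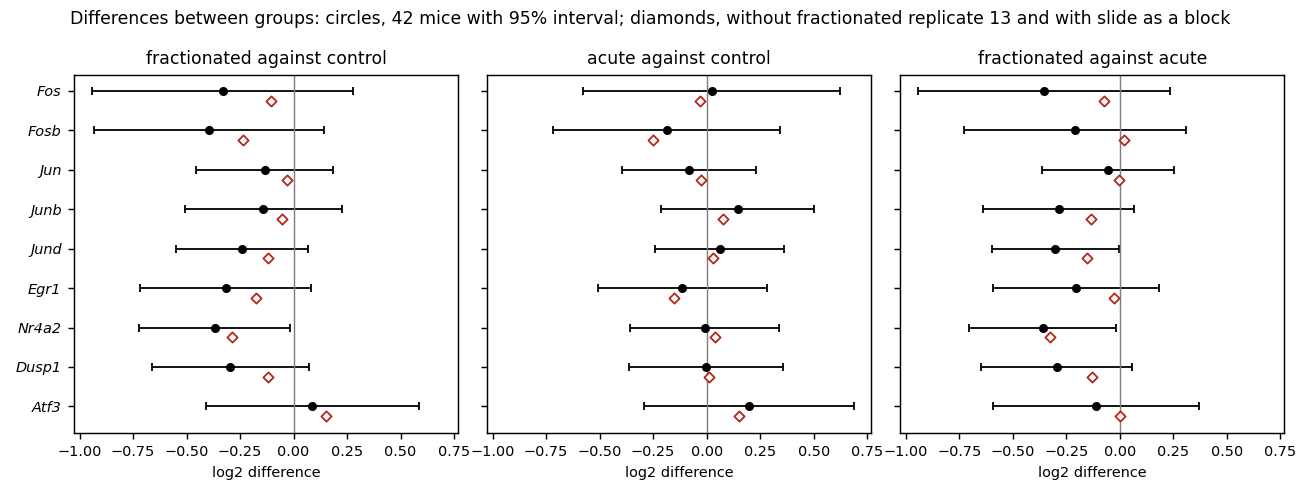
Log2 differences of the 9 tested genes (x axis) in the 3 comparisons of groups, with circles and bars for all 42 mice and their 95% confidence intervals, and open diamonds for the same difference without fractionated replicate 13 and with slide as a block. Nearly all circles lie left of 0 in the comparisons that involve fractionated lungs, most intervals include 0, and most diamonds in these comparisons lie closer to 0 than the circles.

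Males and females were compared next. Of the 9 genes, none was called between males and females, against 318 of all probes (1.77%), and the differences ran from -0.17 (Dusp1, lower in males) to 0.28 (Fosb, higher in males), with a smallest adjusted p of 0.536 in limma. Fractionated replicate 13 was a female, and without that mouse Dusp1 differed by -0.28 ± 0.10 (SE; adjusted p = 0.131 in limma) and Fosb by 0.23 ± 0.21. Sex accounted for 14.7% of the variance of Dusp1 in those 41 mice, against a median of 2.06% over all tested probes. The interactions of sex with fractionated and with acute irradiation called none of the 9 and no probe (0%), and 460 (2.57%) and 370 probes (2.06%) had an unadjusted p under 0.05, none of them a member. The smallest unadjusted p among members was 0.0929, for Junb, whose difference of fractionated from control lungs was 0.62 lower in males than in females (-0.62 ± 0.36, SE). This interaction without fractionated replicate 13 was -0.72 ± 0.36 for Junb and -0.74 ± 0.37 for Egr1, with unadjusted p of 0.0515 and 0.0507 in limma and an adjusted p of 1.

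The variance was split with slide entered first, so variance that slide shares with group was credited to slide, which also has more terms. In that split the share of slide exceeded that of group for each of the 9 genes. Without fractionated replicate 13 and with group and sex in the fit, 5 of the 9 genes were called over the 8 slides, where 46.6% of all tested probes were called, so the count is near the background of the array. The 5 were Jund (limma F test, adjusted p = 1.49e-06), Junb (0.000105), Fos (0.00973), Fosb (0.0153) and Jun (0.0394). Egr1 (0.505), Dusp1 (0.665), Nr4a2 (0.338) and Atf3 (0.314) did not pass. One of the 8 slides held a single mouse, fractionated replicate 14, which had the lowest Junb and Jund. Without that slide, an alternative chosen after the data were seen, the same 5 genes were called over 7 slides, with 44.7% of all probes called. Their adjusted p were then 0.000133 for Jund, 0.000218 for Junb, 0.00933 for Fos, 0.023 for Fosb and 0.0285 for Jun (limma F test). With all 8 slides, slide accounted for 69.3% of the variance of Jund, 62.2% of that of Junb and 44.5% of that of Fos, against a median of 34.2% over all tested probes. Over the 7 slides these shares were 54.5% for Jund, 56.9% for Junb and 41.5% for Fos, against a median of 30.6%. With all 8, the share of group was 9.23% for Nr4a2 and 2.58% or less for the other 8, with a median of 2.08% over all probes.

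Earlier results of these data had set slides 3, 4 and 5 apart from the others, and the members are described here over that division without a test. Fos averaged 10.33 ± 0.60 on slides 3 to 5 (SD, n = 17) and 9.44 ± 0.58 on the other slides (SD, n = 24), a difference of 0.89 that exceeded those of 99.4% of tested probes. Fosb differed by 0.77, Junb by 0.70, Jund by 0.53 and Atf3 by 0.53, higher on slides 3 to 5, and each was above more than 95% of probes. All 17 arrays of these slides exceeded the median of the other slides for Junb and Jund, and 16 of 17 did so for Fos, Fosb and Atf3. Egr1 differed by 0.33 and Dusp1 by 0.09, whereas Nr4a2 (-0.32) and Jun (-0.34) were lower there. The ranges of slides 3 to 5 together and of the other slides together overlapped for all 9 genes. Each of slides 3 to 5 held all 3 groups, but not in equal numbers. Slide 5 held 1 control, 1 fractionated and 3 acute mice. The arrays of slides 3 to 5 were brighter, with a median 95th percentile of signal of 2102 against 1744. They had a median of 17358 against 16875.5 probes detected, and the part of this in the differences was not tested. Marker lists differed there in both directions, by the mean of their tested markers. The fibroblast markers lay 0.36 higher on slides 3 to 5 (5 of 5 tested markers higher), the mast cell markers 0.42 (2 of 2), the B cell marker tested 0.38, the cell cycle markers 0.26 (4 of 5) and the smooth muscle markers 0.21 (3 of 4). Lower there were the markers of heart muscle (-0.13), red cells (-0.10), adipose tissue (-0.09), T and NK cells (-0.08), heat shock (-0.07) and endothelium (-0.06). The remaining lists lay higher by 0.15 or less. The part of cell types in the differences was not tested. Under median scaling all probes shifted by 0.252 on these slides, Fos by 1.21 and Jun by -0.02.

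**Figure D4:**
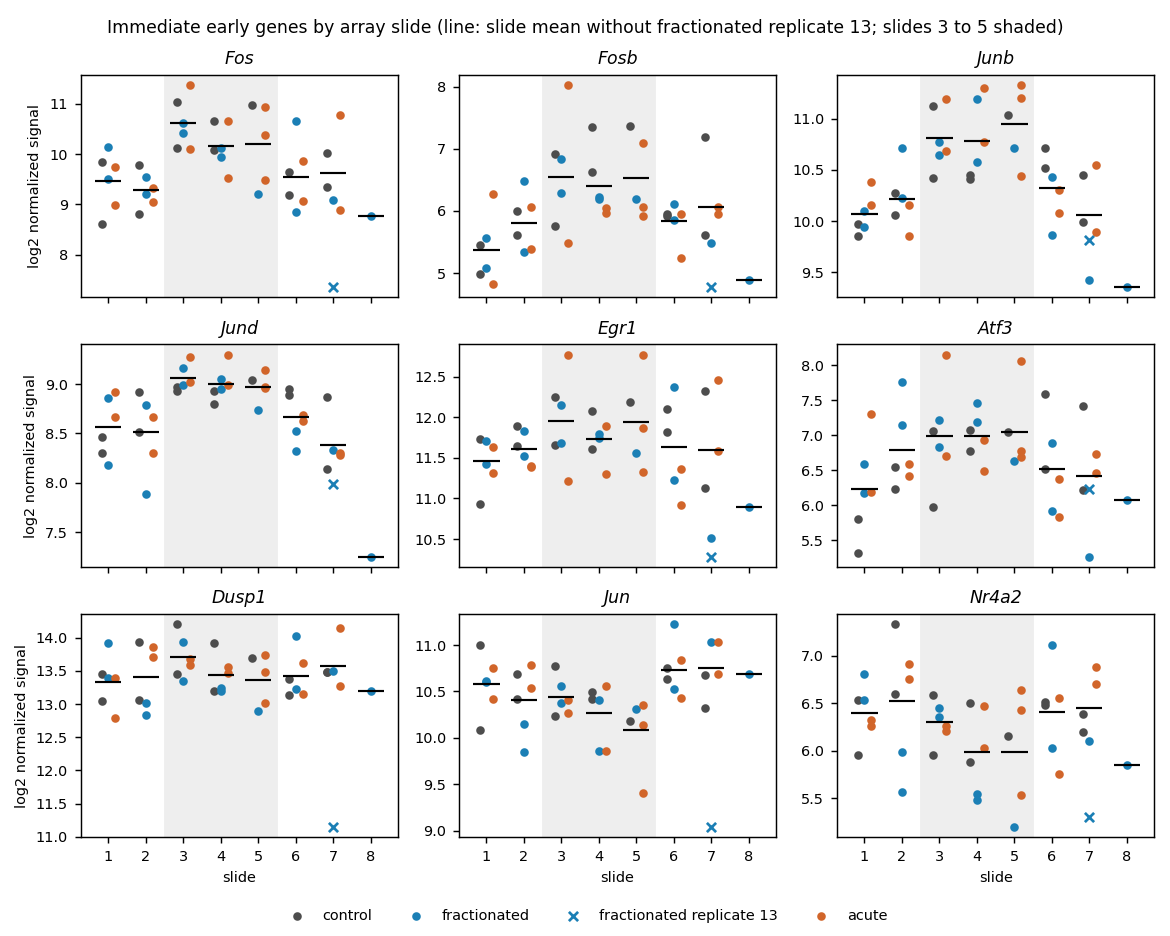
Log2 normalized signal of the 9 tested genes (y axis) by slide (x axis), coloured by group, with a line at each slide's mean, slides 3 to 5 shaded, and a cross for fractionated replicate 13, which the means leave out. Junb, Jund, Fos and Fosb sit higher on the shaded slides, whereas Jun and Nr4a2 do not.

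The genes differed in how much they varied between mice. The SD over 41 mice, in which differences of slide and group are included, was 0.73 for Fos, 0.71 for Fosb and 0.65 for Atf3, larger than for 95.9% or more of the tested probes, whose median SD was 0.30. Egr1 (0.49), Junb (0.49) and Nr4a2 (0.46) were intermediate, and Jund (0.41), Jun (0.36) and Dusp1 (0.36) were nearest to the median.

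The genes were then set against each other across the 41 mice other than fractionated replicate 13, over 36 pairs. Of these, 23 correlations were called after adjustment over the pairs, 19 positive and 4 negative, in two-sided permutation tests over arrays (100000 draws), and 21 were called by rank correlation. With slide means removed and draws kept within slides (40 mice), 10 pairs were called, 9 positive and 1 negative. The share of pairs called among other tested probes, which lie on the same arrays and slides, was not computed. These counts are therefore not read as particular to these genes. The p-values below are from draws over all arrays, which ignore slide, unless draws within slides are named. Fos and Egr1, both targets of serum response factor, had the highest correlation (Pearson r = 0.76, Spearman rho = 0.73, permutation p = 1e-05, the smallest that the draws can give, adjusted p = 6e-05). It was 0.71 without the 2 mice farthest from the median of Fos and 0.76 with slide means removed, and ran from -0.041 to 0.958 within the 5 slides of 6 mice. Fos correlated with Junb at r = 0.71 (rho 0.68, adjusted permutation p = 6e-05; 0.66 without the 2 farthest mice; 0.52 with slide means removed). With Fosb it stood at r = 0.68 (rho 0.66, adjusted permutation p = 6e-05; 0.61 without the 2 farthest mice; 0.54 with slide means removed, and positive within all 5 slides of 6 mice). With slide means removed and draws within slides, the adjusted permutation p was 0.00036 for Fos and Egr1, 0.012 for Fos and Junb and 0.0096 for Fos and Fosb.

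Fos also correlated with Dusp1 (r = 0.49, rho 0.51, adjusted permutation p = 0.0028; 0.52 without the 2 farthest mice; 0.48 with slide means removed, adjusted permutation p = 0.016 with draws within slides). The correlations of Jund were lower within slides. Junb and Jund had r = 0.73 (rho 0.77, adjusted permutation p = 6e-05; 0.68 without the 2 farthest mice). With slide means removed this was 0.35 and did not pass (adjusted permutation p = 0.081 with draws within slides). Fos and Jund had r = 0.44 (rho 0.47, adjusted permutation p = 0.0082), which was -0.09 with slide means removed (adjusted permutation p = 0.65 with draws within slides). Nr4a2 and Dusp1 had r = 0.59 (rho 0.57, adjusted permutation p = 0.00022; 0.53 without the 2 farthest mice), and 0.68 with slide means removed (adjusted permutation p = 0.00054 with draws within slides). Jun ran against Junb (r = -0.56, rho -0.58, adjusted permutation p = 0.00029) and against Atf3 (r = -0.54, rho -0.46, adjusted permutation p = 0.00054), with -0.38 and -0.44 after slide means were removed. With draws within slides only the pair of Jun and Atf3 passed (adjusted permutation p = 0.03), and that of Jun and Junb did not (0.072). The negative correlations depended on scaling. Under median scaling Jun and Junb had r = 0.006 and Jun and Atf3 r = -0.13, and none of the 4 negative pairs was called. Fos and Jun, partners in the classical AP-1 pair, had r = -0.18 (rho -0.25, adjusted permutation p = 0.35), 0.07 with slide means removed and 0.22 under median scaling.

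Seen in this way the genes fell into 2 sets, which were chosen from these correlations and are therefore described without a test. Among Fos, Fosb, Junb, Jund, Egr1 and Atf3 all 15 pairs were positive, with a median r of 0.62, and 14 of 15 were positive with a median of 0.44 after slide means were removed. Jun, Nr4a2 and Dusp1 were positive in all 3 of their pairs, with a median of 0.44 and of 0.42 after slide means were removed. Between the sets 7 of 18 pairs were positive (median -0.11), and 15 of 18 were under median scaling (median 0.21).

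**Figure D5:**
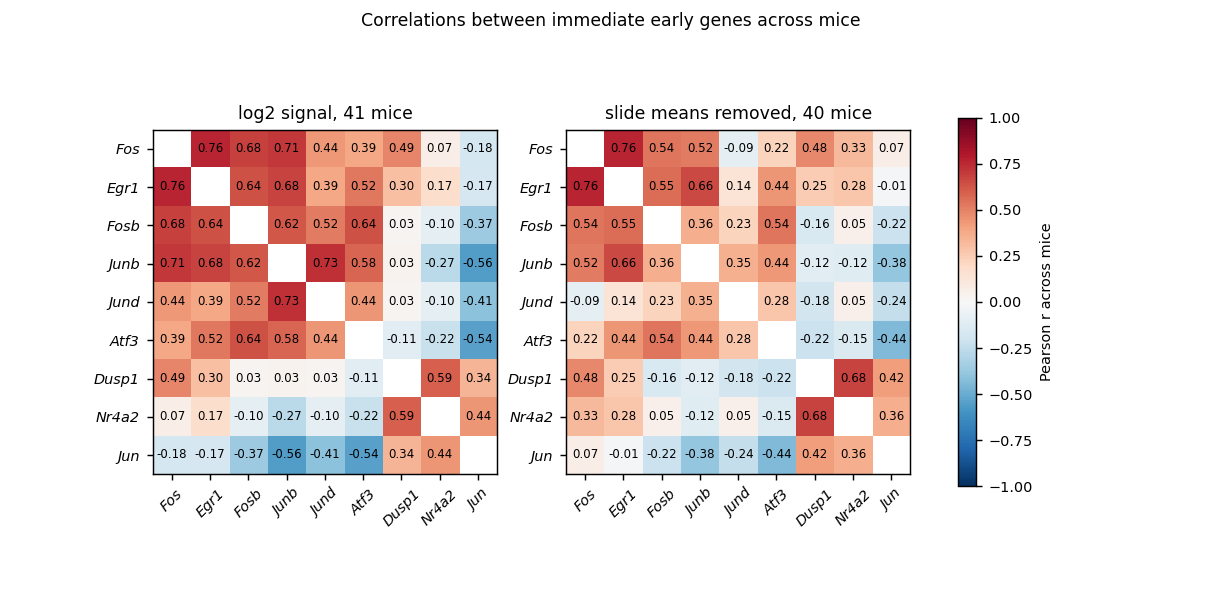
Pearson correlations between the 9 tested genes across mice, from log2 signals of 41 mice (left) and after the mean of each slide was removed in 40 mice (right), with r printed in each cell and its sign in colour. The block from Fos to Atf3 is positive in every pair on the left, and Fos with Egr1 stays at 0.76 on the right.

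Outside the 10 genes, the pattern most like theirs was sought over 15572 tested probes with 1 gene symbol, as the correlation with the mean of the 9 standardized genes over 41 mice, which share arrays and slides. The highest was Ppp1r15a (r = 0.73), a regulator of translation under stress, followed by 2 probes of Ccn1 (0.72 and 0.71), a secreted matrix protein that is itself an immediate early gene. Rbak (0.65), Tpra1 (0.65), Lfng (0.64), Mknk2 (0.64), St3gal6 (0.64), Rps12 (0.63) and Snx2 (0.62) completed the first 10. Of these 10 probes, 5 stayed among the first 10 with slide means removed, those of Ppp1r15a (0.58), Ccn1 (0.60 and 0.63), Rbak (0.55) and Snx2 (0.56), whereas Mknk2 fell to rank 613. The third probe of Ccn1, singled out after its values were seen, correlated at 0.29 (rank 2464), and at 0.65 with slide means removed, the highest of all by that measure.

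Other genes of the same response were taken from 3 lists. Of 12 relatives of Fos, Egr and Nr4a genes, 9 were tested, and 3 were higher and 6 lower in fractionated than in control lungs (median -0.025). Egr2, a zinc finger relative of Egr1, differed by 0.19 ± 0.21 (SE) in that comparison and by 0.28 ± 0.21 in acute against control lungs, and Maff, a small Maf factor, by -0.18 ± 0.16 and -0.22 ± 0.15. Fosl2, a Fos relative, differed by -0.14 ± 0.10 and Jdp2, a repressor of AP-1, by -0.13 ± 0.17 in fractionated against control lungs. None of the 9 was called in any of the 3 comparisons, and none had an unadjusted p under 0.05. The count in fractionated against control lungs without fractionated replicate 13 was 5 higher and 4 lower (median 0.0066), with Fosl2 at -0.08 ± 0.09, Jdp2 at -0.07 ± 0.17, Maff at -0.18 ± 0.16 and Egr2 at 0.23 ± 0.22.

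Of 53 other immediate early genes, 42 were tested. In fractionated against control lungs 11 were higher and 31 lower (median -0.09, against -0.0040 over all probes), in acute against control lungs 21 were higher and 21 lower, and in fractionated against acute lungs 13 were higher and 29 lower (median -0.08). None was called in any comparison. The smallest p in fractionated against control lungs belonged to Tob1, an antiproliferative factor, at -0.23 ± 0.12 (SE; unadjusted p = 0.0573 in limma). After it came Klf2, a flow-induced endothelial factor, at -0.32 ± 0.19, Zfp36, which speeds the decay of cytokine transcripts, at -0.19 ± 0.12, and Thbs1, a matrix glycoprotein, at -0.41 ± 0.27. When fractionated replicate 13 was left out, 14 were higher and 28 lower (median -0.03), with Tob1 at -0.13 ± 0.08, Klf2 at -0.18 ± 0.17, Zfp36 at -0.09 ± 0.09 and Thbs1 at -0.38 ± 0.28. These 4 were chosen with that mouse included. Without it, 1 other gene of the 42 had an unadjusted p under 0.05 in limma, against 0 with it. In acute against control lungs Gadd45g, a stress-induced growth arrest gene, differed by 0.23 ± 0.11 (unadjusted p = 0.0495 in limma, adjusted p = 1), Homer1 by -0.16 ± 0.09, Nfkbia, the inhibitor of NF-kB, by -0.14 ± 0.09 and the kinase Plk2 by 0.15 ± 0.11. In fractionated against acute lungs Klf2 differed by -0.33 ± 0.19, Rhob by -0.27 ± 0.17, Ccn1 by -0.30 ± 0.20 and Klf4 by -0.24 ± 0.17. Without that mouse the counts were 14 higher and 28 lower (median -0.02), and the same 4 genes stood at -0.19 ± 0.16 (Klf2), -0.13 ± 0.14 (Rhob), -0.13 ± 0.16 (Ccn1) and -0.13 ± 0.15 (Klf4).

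Of 22 kinases and factors upstream of immediate early transcription, 14 were tested, and none was called. In fractionated against control lungs 5 were higher and 9 lower (median -0.026). Elk3, a partner of serum response factor, had the smallest p, at -0.25 ± 0.10 (SE; unadjusted p = 0.0201, adjusted p = 0.934 in limma), and at -0.11 ± 0.10 in acute against control lungs. Srf, serum response factor itself, differed by 0.15 ± 0.08 in acute against control lungs and by -0.12 ± 0.08 in fractionated against acute lungs. The kinase genes Mapk14 (-0.07 ± 0.07), Mapkapk2 (-0.08 ± 0.09) and Mapk9 (-0.05 ± 0.07) lay near the control level in fractionated lungs. The count in that comparison without fractionated replicate 13 was 4 higher and 10 lower (median -0.02), and Elk3 stood at -0.20 ± 0.09 (unadjusted p = 0.0445, adjusted p = 1 in limma). No gene of the 3 lists was called in any comparison without that mouse.

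The same lists were set against the slides. On slides 3 to 5 the median difference from the other slides was 0.53 for the 9 genes, 0.18 for the relatives, 0.03 for the other immediate early genes and 0.0004 for the upstream genes, against -0.0028 over all tested probes. Over the 8 slides 3 of 9 relatives, 15 of 42 other immediate early genes (35.7%) and 8 of 14 upstream genes (57.1%) were called, against 46.6% of all tested probes.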

How the data were processed

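RNA from whole left lungs was labelled with biotin and hybridised to arrays, per the labels' protocols. Per the file headers, the authors deposited a mean intensity for every probe and array without normalization, together with the p-value of its detection. The deposited value table holds log2 values normalized between arrays, in 41 filled columns with a median of 3.96 each; its background step and software are not given in the sources used here, and it served as an alternative. Intensities were background corrected and quantile normalized with neqc (offset 16) in limma 3.58.1 under R 4.3.3. Probes with a detection p under 0.01 on at least 13 arrays (17927) were tested with group and sex in 1 limma fit of 42 arrays and called at a Benjamini-Hochberg adjusted p under 0.05. Precision is limited by the number of arrays. Probe names came from the platform annotation, updated through RefSeq (34818 matched, 18 with several symbols unused, 10378 unnamed). Alternatives covered scaling, background, filters, slide, sex, single arrays and the deposited values; leaving out slide 8, and fractionated replicate 13 from the lists and the comparison of sexes, were chosen after the data were seen. From each list of other genes, those named were among the 4 of smallest p per comparison, and not all of these are named. Replicate numbers follow the order of the samples. The members, lists and the division of slides were chosen with earlier results of these data known.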

Additional observations from a re-analysis of the deposited data

How the results depend on the processing

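No probe was called in the 3 comparisons of groups, the F test over groups or the interactions of sex with irradiation under any alternative run over both sexes, nor in the 3 comparisons of groups in males or in females alone (a count added after the data were seen), and so no member was called between groups. Between males and females 318 probes were called, against 76 under median scaling, 186 with no filter, 197 with the strict filter, 538 and 665 with slide as a fixed or random block, 868 without fractionated replicate 13 and with slide as a block, and 221 to 631 when 1 array was left out at a time. Over slides 8347 probes and 5 members were called, and 14010 probes and 7 members under median scaling, and 8005 probes and 5 members without slide 8, added after the data were seen. Pairs of members called fell from 23 to 10 with slide means removed. Without fractionated replicate 14 the difference of Jund in fractionated against control lungs was -0.13 and that of Junb -0.071. The strict filter left no value for Fosb, Nr4a2 and Atf3, and no other probe of a member could be tested. No paired analysis was possible because the replicate numbers follow the order of the samples and pair no mice.

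None of the member differences was called, and some changed sign under alternatives, not only those nearest 0. In the main fit Fosb stood at -0.19 in acute against control and at -0.21 in fractionated against acute. Junb stood at 0.14 in acute against control. In males alone the difference was Jun 0.051 and Atf3 -0.026 in fractionated against control, Fos -0.056, Jun 0.0028, Junb -0.084, Jund -0.041, Nr4a2 0.17 and Dusp1 0.12 in acute against control and Jun 0.048 in fractionated against acute. In females alone it was Junb 0.18 in fractionated against control, Fosb 0.0098 in acute against control and Atf3 0.0096 in fractionated against acute. With slide as a fixed block it was Fos -0.034, Nr4a2 0.038 and Dusp1 0.0075 in acute against control. With slide as a random block it was Fos -0.0080, Nr4a2 0.017 and Dusp1 0.0036 in acute against control. Without fractionated replicate 13 and with slide as a block it was Fos -0.031, Nr4a2 0.040 and Dusp1 0.011 in acute against control and Fosb 0.018 and Atf3 0.00017 in fractionated against acute. Under median scaling it was Jun 0.044, Egr1 0.014, Nr4a2 0.054 and Dusp1 0.13 in acute against control. With the authors' deposited value table it was Jun 0.046 in fractionated against acute. Without fractionated replicate 13 it was Jun 0.045 in fractionated against acute. Leaving out 1 array at a time, the range passed 0, at -0.017 to 0.20 for Atf3 in fractionated against control, -0.092 to 0.13 for Fos in acute against control, -0.053 to 0.072 for Nr4a2 in acute against control, -0.042 to 0.052 for Dusp1 in acute against control, -0.13 to 0.045 for Jun in fractionated against acute and -0.20 to 0.0053 for Atf3 in fractionated against acute. Among correlations that changed sign, r with slide means removed was 0.070 for Fos and Jun, -0.093 for Fos and Jund, 0.050 for Fosb and Nr4a2, -0.16 for Fosb and Dusp1, -0.12 for Junb and Dusp1, 0.050 for Jund and Nr4a2 and -0.18 for Jund and Dusp1. Over all 42 arrays it was 0.11 for Fos and Jun and 0.086 for Jun and Egr1. Under median scaling it was 0.22 for Fos and Jun, 0.032 for Fosb and Jun, 0.093 for Fosb and Nr4a2, 0.0062 for Jun and Junb, 0.0029 for Jun and Jund, 0.20 for Jun and Egr1, 0.064 for Jund and Nr4a2 and 0.25 for Dusp1 and Atf3. The cause of these changes was not tested.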
